A study of Homo sapiens with 6 samples.

Results

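The genes examined here are CSTA, which encodes cystatin A, with other cystatins (CSTB, CST3) and cathepsins (CTSB, CTSC, CTSD, CTSH, CTSL, CTSV and CTSZ), 10 of the 50868 genes in the deposited expression table. They were taken by gene name. CSTA was chosen by its fall in pcYY2 against pcCon in these same samples, where it had the third lowest log2 fold change among the called genes whose groups did not overlap, and the others were added as its relatives and the proteases that cystatins bind. The values of all 10 genes in this comparison are therefore given as a description. No p value is printed for them, and nothing is read from counts of them that passed a threshold. HCT116 cells, an established human colorectal cancer line, received by transfection either the plasmid for overexpressing YY2 (pcYY2) or the control plasmid pcCon, and polyA RNA was sequenced in 3 samples of each. YY2 is a zinc-finger transcription factor, and the study asked which genes respond to its overexpression. Both groups share the cell line and the transfection, so that an untransfected state was not part of the comparison. The sources do not say whether the 3 samples came from separate cultures, so p values measure only the spread between these samples.

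Cathepsins are proteases, most of them cysteine proteases of the lysosome, where they degrade proteins delivered from inside and outside the cell. Cystatins are tight, reversible inhibitors that occupy the active-site cleft of the papain-like cysteine cathepsins. Cystatins A and B, also called stefins, lack a signal peptide and stay in the cytosol, while cystatin C is secreted. Cystatin A is known from stratified epithelia, where it is also a component of the cornified envelope of keratinocytes.

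Both CSTA and CSTB have a coding sequence of 297 bases, and an alignment of the 2 GENCODE 44 sequences gave 57.9% identical bases. The coding sequences of CTSL and CTSV, close relatives among the cathepsins, were identical at 83.3% of aligned bases. The stretches around the longest shared run of CTSL and CTSV are shown because they bear on whether reads of both genes can be told apart. Capitals mark the shared run of 40 bases. The lower-case start of the stretches holds the codon of the catalytic cysteine.

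CTSL, exon 5, GRCh38 chr9:87728588-87728687, plus strand: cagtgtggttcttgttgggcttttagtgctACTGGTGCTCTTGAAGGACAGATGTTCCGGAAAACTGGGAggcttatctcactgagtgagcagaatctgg
CTSV, exon 5, GRCh38 chr9:97036645-97036744, minus strand: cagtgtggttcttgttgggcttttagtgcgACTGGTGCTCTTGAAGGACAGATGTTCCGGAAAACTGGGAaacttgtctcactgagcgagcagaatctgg

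Of the 50-base words in the canonical CSTA, CSTB, CST3, CTSC, CTSH and CTSZ transcripts, 0 occurred in a transcript of another gene on the same strand. CTSL shared 16 of its 1605 words with other genes, 14 of them with the pseudogene CTSL3P. CTSV shared 17 of 4310 words, and CTSB 83 of 3684. CTSD differed from these, since 1229 of its 2006 words (61.3%) also lie in ENSG00000250644, an annotated gene on the same strand that runs through CTSD. Reads from that shared stretch cannot be told apart, and the CTSD values below carry this limit.

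Between 15158360 and 29572882 reads were counted on genes per sample, so that a floor of 3 counts lay between 0.101 and 0.198 CPM, covering counting error only. Each deposited FPKM equals the count per length of the gene and per total count of the sample. YY2 itself had an FPKM of 2.22, 2.52 and 1.73 in pcCon and of 11.6, 11.1 and 11.0 in pcYY2, which places every sample on the side its label names. Of 7 epithelial markers, 6 had a mean FPKM of at least 1, with EPCAM between 68.9 and 76.8, and only VIL1 was near 0 (at most 0.00856). The summed level of these 7 markers was 301 to 314 FPKM in pcCon and 393 to 429 in pcYY2. Over the 6 samples the keratins KRT19 and KRT8 had the widest spans, 106 to 166 and 61.6 to 113. KRT18 spanned 54.1 to 65.2 and CDX2 4.06 to 4.92. The sum therefore does not show that every epithelial marker rose. None of 6 leukocyte or 4 endothelial markers and 1 of 6 fibroblast markers (COL1A1) reached a mean of 1. The fibroblast markers COL1A2, DCN and LUM and the leukocyte marker MS4A1 were listed at 0 in every sample. The summed levels in pcCon and pcYY2 were 0.164 to 0.338 and 0.166 to 0.656 for leukocytes, 1.99 to 2.23 and 2.20 to 2.73 for fibroblasts, and 0.0357 to 0.214 and 0.0936 to 0.196 for endothelium. The part of these marker levels in the results below was not tested.

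CSTA (ENSG00000121552, GRCh38 chr3:122325244-122341972) was counted 52, 77 and 69 times in the pcCon samples 1 to 3, and 14, 31 and 12 times in the pcYY2 samples 1 to 3. The exact 95% Poisson intervals of these counts, which cover counting error only, ran from 38.8 to 68.2 for the lowest pcCon count and from 21.1 to 44.002 for the highest pcYY2 count, a sample sequenced more deeply. In FPKM the pcCon samples had 1.82, 2.68 and 2.90 and the pcYY2 samples 0.581, 0.667 and 0.415. All 3 pcYY2 samples lay below all 3 pcCon samples. Relative to the pcCon mean, the pcYY2 samples stood at 23.6%, 27.0% and 16.8%, and the pcCon samples at 73.7%, 109% and 117%. The pcCon mean was 2.47 ± 0.572 and the pcYY2 mean 0.554 ± 0.128 (SD, n = 3 each). The log2 fold change fitted with edgeR was -2.10 (standard error 0.27), which is 4.29-fold lower in pcYY2. Fewer cells that express the gene and less RNA per cell cannot be told apart in such bulk samples.

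CSTA entered the tested genes through its level in pcCon. The filter asked for a mean FPKM of at least 1 over all 6 samples, and CSTA had 1.51, while its pcYY2 mean alone was below 1. The biological coefficient of variation, which measures variation within the groups over and above counting, was fitted at 19.7% for CSTA, against 13.3% in common over all genes and 7.91% for CTSZ, the lowest of the 10. In fits that each omitted a sample, the log2 fold change of CSTA lay between -2.30 and -1.94. On the log2(FPKM + 1) scale it was -1.15, where the added 1 outweighs the pcYY2 level.

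**Figure D1:**
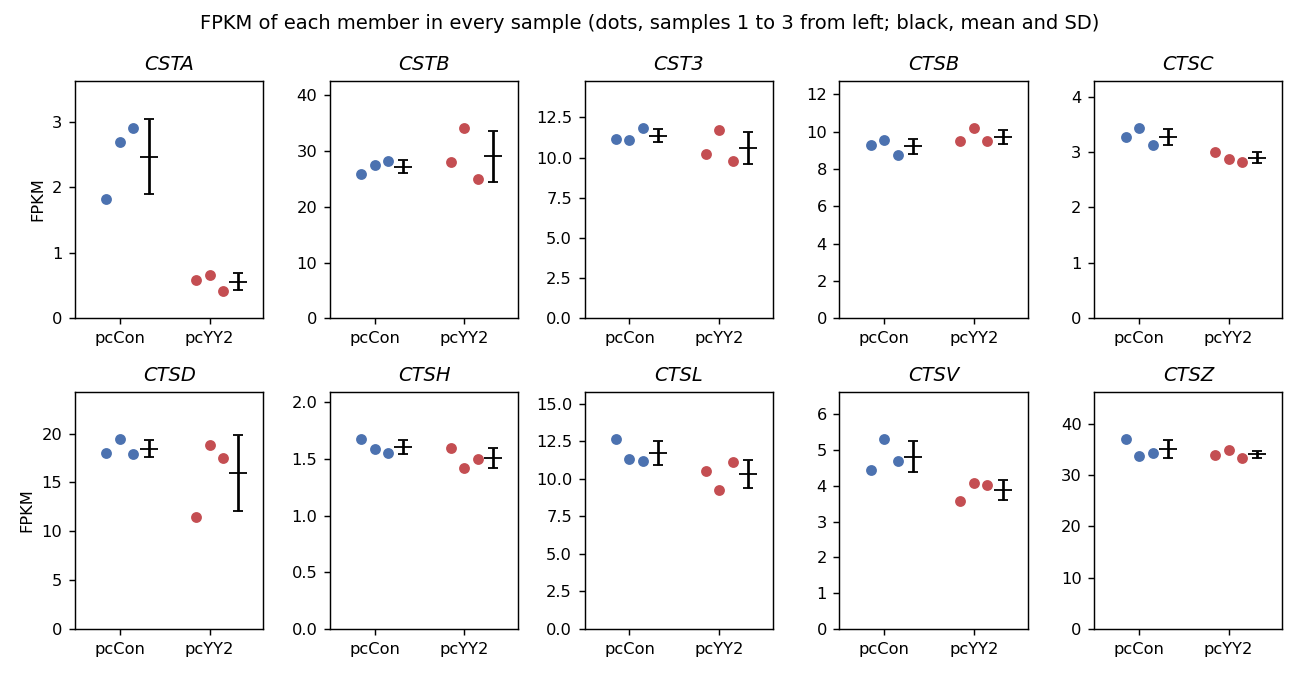
FPKM (vertical axes, each from 0) of the 10 genes in the 3 pcCon and 3 pcYY2 samples, shown as dots, with the group mean and SD in black. CSTA falls from 1.82 to 2.90 in pcCon to 0.415 to 0.667 in pcYY2, and CTSD has a single low sample, pcYY2 1 with 11.5.

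CSTB (ENSG00000160213, chr21:43772512-43776445), the other stefin, had an FPKM of 25.9, 27.4 and 28.3 in pcCon and of 28.1, 34.1 and 25.0 in pcYY2. The groups overlapped, and the pcYY2 samples held both the highest and the lowest value of the 6. The means were 27.2 ± 1.19 and 29.1 ± 4.60 (SD, n = 3 each), and the log2 fold change was 0.11 (standard error 0.115). That sign rested on pcYY2 2. Without this sample the log2 fold change was -0.02.

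CST3 (ENSG00000101439, chr20:23626706-23638473) encodes cystatin C, the secreted inhibitor that is measured in blood as a marker of kidney filtration. It had an FPKM of 11.2, 11.1 and 11.8 in pcCon and of 10.2, 11.7 and 9.81 in pcYY2. The groups overlapped, and the log2 fold change was -0.09 (standard error 0.0822). Of the 3 cystatins, CSTA alone had groups that did not overlap, beside 19.9% of all genes tested that were lower without overlap. CSTA was chosen among genes with that property, so nothing is read from this contrast. The difference in response between the cystatins was not tested.

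CTSV (ENSG00000136943, chr9:97029679-97039643) encodes a cathepsin L relative with strong elastin-degrading activity, known from thymus, testis and cornea. It had an FPKM of 4.44, 5.30 and 4.71 in pcCon and of 3.57, 4.07 and 4.02 in pcYY2. All pcYY2 samples lay below all pcCon samples, and the log2 fold change was -0.29 (standard error 0.1), the lowest among the 9 genes other than CSTA.

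CTSL (ENSG00000135047, chr9:87725519-87731393) encodes a broad endopeptidase of the lysosome. Its FPKM was 12.6, 11.3 and 11.2 in pcCon and 10.5, 9.26 and 11.1 in pcYY2. The groups were apart only by the margin between 11.17 in pcCon 3 and 11.13 in pcYY2 3, and on TMM-scaled log2 CPM these samples changed sides, so that the groups overlapped. The order of the samples thus depended on the scale, and the log2 fold change was -0.17 (standard error 0.0873).

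CTSC (ENSG00000109861, chr11:88293592-88337787) encodes dipeptidyl peptidase I, which activates the granule proteases of immune cells. The pcCon samples had an FPKM of 3.27, 3.43 and 3.13 and the pcYY2 samples 3.01, 2.87 and 2.82. The groups did not overlap, and the log2 fold change was -0.16 (standard error 0.0623).

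CTSB (ENSG00000164733, chr8:11842524-11869448), an endopeptidase that also trims dipeptides, had an FPKM of 9.28, 9.57 and 8.76 in pcCon and of 9.51, 10.2 and 9.49 in pcYY2. The highest pcCon value exceeded the pcYY2 values of samples 1 and 3, so the groups overlapped, and the log2 fold change was 0.09 (standard error 0.0561). CTSZ (ENSG00000101160, chr20:58995185-59007247), a carboxypeptidase, had 37.0, 33.7 and 34.4 in pcCon and 33.9, 34.8 and 33.4 in pcYY2. Its groups overlapped, and the log2 fold change was -0.03 (standard error 0.0554), which became 0.01 without pcCon 1. CTSH (ENSG00000103811, chr15:78921058-78949574), an aminopeptidase, had 1.68, 1.59 and 1.55 in pcCon and 1.599, 1.42 and 1.504 in pcYY2. Its groups overlapped as well, and the log2 fold change was -0.08 (standard error 0.0857).

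CTSD (ENSG00000117984, chr11:1752752-1763992) encodes the aspartic protease among the 10, which cystatins do not inhibit. Its FPKM was 18.1, 19.4 and 17.9 in pcCon and 11.5, 18.8 and 17.5 in pcYY2. A single sample, pcYY2 1, had the lowest value of the 6, at 62.3% of the pcCon mean. Its 948 reads gave an exact 95% Poisson interval of 10.8 to 12.3 FPKM, which covers counting error only and not the spread between samples. The log2 fold change was -0.19 (standard error 0.173), and without pcYY2 1 it was -0.0047. The overlapping gene ENSG00000250644 was counted 0, 0 and 8 times in pcCon and 0, 16 and 3 times in pcYY2, so no read was assigned to it in pcYY2 1, pcCon 1 or pcCon 2. Since reads of the shared stretch cannot be told apart, these counts do not show how many reads lie in it. The part of this overlap in the low CTSD value was not tested.

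**Figure D2:**
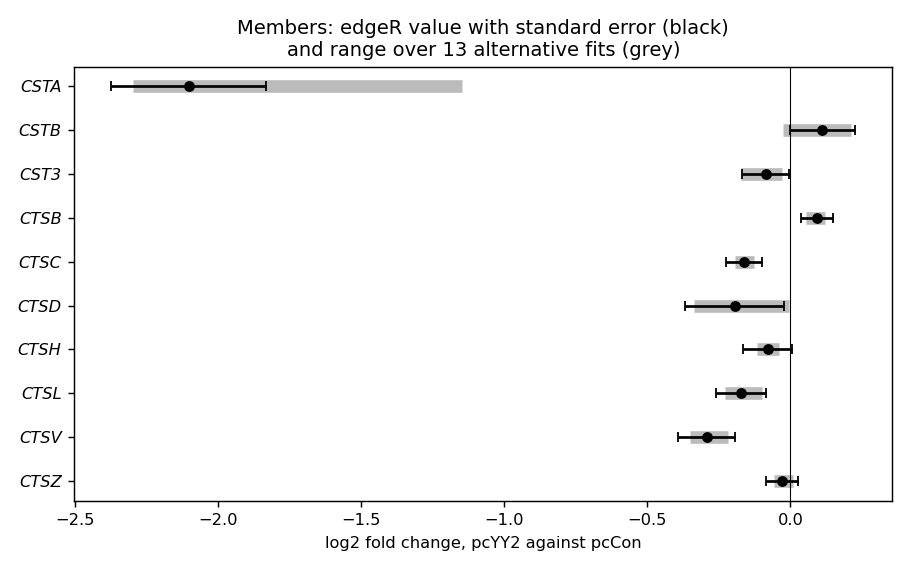
Log2 fold change of each gene, pcYY2 against pcCon (horizontal axis), with its standard error from edgeR in black and the range over 13 alternative fits in grey. CSTA stands at -2.10 and the 9 others lie between -0.29 and 0.11, and the grey bar of CSTA reaches -1.15 in the fit on log2(FPKM + 1).

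All 10 genes were among the 12015 tested. At an adjusted p (Benjamini-Hochberg) of at most 0.05 in edgeR's quasi-likelihood fit, 1 of the 10 was called lower (CSTA) and 0 were called higher, beside 4.85% of all genes tested that were called lower, 4.52% that were called higher and 9.37% in either direction. Since this comparison chose CSTA, nothing is read from that count. At an unadjusted p under 0.05, 0 were higher and 3 lower (CSTA, CTSC and CTSV), beside 14.4% and 14.5% of all genes tested. DESeq2 and limma on log2(FPKM + 1) each called 1 of the 10 lower and 0 higher. Over all genes DESeq2 called 6.18% higher and 6.29% lower, as shares of the genes to which it gave an adjusted p, and limma called 3.84% and 4.69%. The FPKM values of the groups did not overlap in 4 of the 10 genes, all lower in pcYY2 (CSTA, CTSC, CTSL and CTSV), beside 19.9% of all genes tested that were lower and 15.9% that were higher without overlap. On TMM-scaled log2 CPM, a scale added after seeing the data, the count was 3 of 10, without CTSL, beside 18.3% lower and 17.5% higher over all genes tested. The log2 fold change was below 0 in 8 of the 10 genes. Its median was -0.12 over all 10 and -0.09 over the 9 genes other than CSTA, against 0.002 over all genes tested. The log2 fold changes of those 9 genes lay within the range that holds the middle 80% of all genes tested, from -0.32 to 0.30, and 8 genes of the 12015 had a lower log2 fold change than CSTA.

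The levels of the 10 genes were compared with each other per length, in FPKM. In pcCon the order was CTSZ, CSTB, CTSD, CTSL, CST3, CTSB, CTSV, CTSC, CSTA and CTSH, from a mean of 35.0 to 1.61. Of neighbours in this order, only CTSL and CST3 overlapped in their values. In pcYY2 the order was CTSZ, CSTB, CTSD, CST3, CTSL, CTSB, CTSV, CTSC, CTSH and CSTA, from 34.0 to 0.554. Here CTSZ and CSTB overlapped, as did CTSD with CST3, CST3 with CTSL, and CTSL with CTSB. CSTA and CTSH exchanged their places at the low end on this scale. In pcCon the lowest CSTA value (1.82) lay above the highest of CTSH (1.68), and in pcYY2 the highest CSTA value (0.667) lay below the lowest of CTSH (1.42).

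This order depends on the length used for the FPKM. The deposited FPKM implies lengths of 18269 bases for CTSB, 14488 for CTSC and 10490 for CTSH, where the canonical GENCODE 44 transcripts have 3733, 1870 and 2145. With the canonical length instead, an alternative chosen after seeing the data, CSTB came first with a mean level over the 6 samples of 136, followed by CTSZ with 68.6, CST3 with 65.9, CTSB with 46.3, CTSD with 45.0, CTSL with 30.2, CTSC with 23.9, CTSH with 7.61 and CTSV with 5.26. CSTA came last with 3.19. The exchange of CSTA and CTSH was not present on this scale. CSTA had a mean of 5.21 in pcCon and 1.17 in pcYY2, below the 7.85 and 7.37 of CTSH in both groups. In pcCon the values of CSTA overlapped those of CTSV, which had a mean of 5.82. Differences between the groups within a gene are not touched by its length.

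The pattern of CSTA over the 6 samples was compared with that of every tested gene, by the root mean square difference of log2 CPM after each gene was centred on its mean of 6 samples. The 5 genes most like it were ASNS (0.288), EGR1 (0.327), TNS4 (0.436), PLA2G7 (0.497) and RN7SL333P (0.504). ASNS, which encodes asparagine synthetase, had an FPKM of 26.9, 28.4 and 25.0 in pcCon and of 8.24, 8.31 and 7.33 in pcYY2, and its log2 fold change was -1.73 (standard error 0.0744). The log2 fold change of EGR1, an immediate early transcription factor, was -1.71 (standard error 0.0709), and that of TNS4, a focal adhesion adaptor, was -1.46 (standard error 0.0754). PLA2G7, a secreted phospholipase that hydrolyses platelet-activating factor, was at -1.15 (standard error 0.179). RN7SL333P, a pseudogene of the signal recognition particle RNA, was at -1.66 (standard error 0.38), from 3 to 12 reads per sample. All 5 resembled CSTA in the difference between the groups, which is what chose them. Within pcCon, CSTA was lowest in sample 1, while ASNS and EGR1 were lowest in sample 3.

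**Figure D3:**
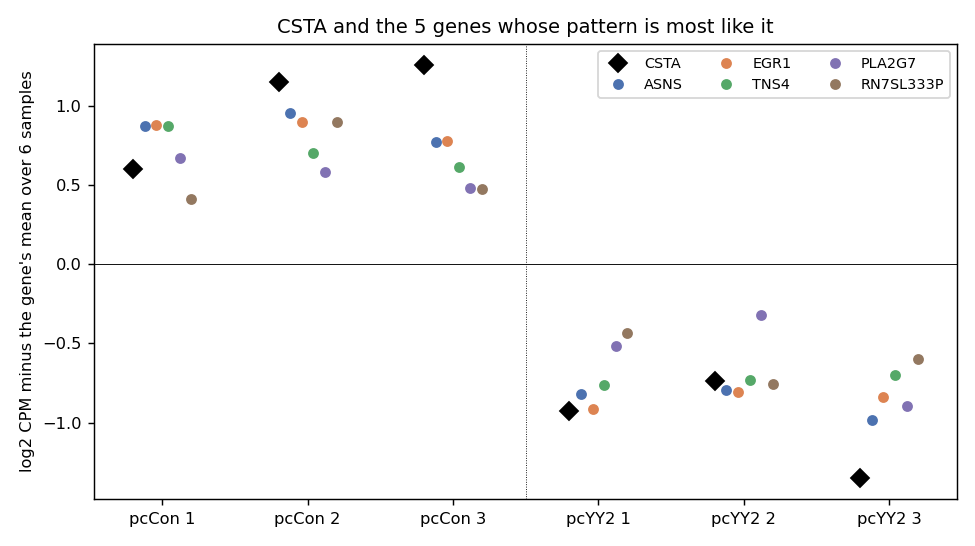
Log2 CPM of CSTA (black diamonds) and of the 5 genes most like it (coloured dots), each minus its mean over the 6 samples, by sample. All 6 genes lie above 0 in the pcCon samples and below 0 in the pcYY2 samples, and CSTA spreads most, from 0.60 to 1.26 in pcCon and from -1.35 to -0.74 in pcYY2.

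CSTA lies on the plus strand of chromosome 3, and no other gene of the deposited table overlaps it. Of the 3 annotated genes nearest before it, HNRNPA1P23 (6.51 kb away) and CASR (33.6 kb away), the calcium-sensing receptor, had no read in any sample. The third, ENSG00000287977, is absent from the deposited table and so has no values. The 3 genes nearest after it were tested. MIX23 (17.6 kb away, listed as CCDC58) averaged 16.2 ± 1.08 FPKM in pcCon and 15.3 ± 0.480 in pcYY2 (SD, n = 3 each), with an edgeR adjusted p of 0.561. FAM162A (42.2 kb away) had 10.7 ± 0.832 and 9.70 ± 0.140, with an adjusted p of 0.299, and WDR5B (69.9 kb away) had 2.35 ± 0.299 and 1.85 ± 0.403, with an adjusted p of 0.267. Their log2 fold changes were -0.07, -0.13 and -0.34 in this order.

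The remaining genes of the system were examined in 7 lists with 127 genes, of which 76 were tested. The lists were chosen with earlier results of these data known. Their shares of called genes are therefore given as a description, and nothing is read from them. Of the 76, 10 were called higher in pcYY2, 5 were called lower and 61 were not called. That is 19.7% called, beside 9.37% of all genes tested (4.52% higher and 4.85% lower). At an unadjusted p under 0.05 in edgeR, 22 of the 76 were higher and 11 lower, beside 14.4% and 14.5% of all genes tested. The median log2 fold change of the 76 genes was 0.04. All 15 called genes kept their direction in the 13 alternative fits, but calls were lost in each fit that left out a sample. Without pcCon 1, 2 or 3, in this order, 12, 12 and 11 of the 15 were no longer called, and without pcYY2 1, 2 or 3, 6, 10 and 11 were not. Calls over all genes tested fell in these fits as well. From 543 higher and 583 lower with all samples, they went to 138 to 412 higher and 147 to 393 lower. The loss was therefore not particular to the listed genes.

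Among the other cystatins, CST6 was the only gene of 15 that reached the filter, and 9 had no read in any sample. CST6 (chr11:66011841-66013505) encodes cystatin E/M, a secreted inhibitor of legumain and of cathepsins L and V. It had an FPKM of 22.3, 19.7 and 19.6 in pcCon and of 28.9, 34.1 and 28.9 in pcYY2. All pcYY2 samples lay above all pcCon samples, a rise of 0.59 on the log2 scale (standard error 0.107, adjusted p = 0.023, edgeR). CST6 was called in 7 of 13 alternatives. The call was lost without any single pcCon sample and without pcYY2 2 or 3.

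Of the other cathepsins and legumain, 3 of 9 were tested. CTSA (chr20:45890144-45898820), a serine carboxypeptidase that protects lysosomal beta-galactosidase and neuraminidase, had an FPKM of 7.97, 7.82 and 8.20 in pcCon and of 10.3, 10.6 and 10.6 in pcYY2. It rose by 0.41 on the log2 scale (standard error 0.0477, adjusted p = 0.00675, edgeR), without overlap of the groups, and was called in each of the 6 fits that left out a sample. The bone-resorbing cathepsin CTSK had 1.59 ± 0.214 and 1.51 ± 0.248 (SD, n = 3 each, edgeR adjusted p = 0.843). Legumain (LGMN), an asparaginyl endopeptidase that processes cathepsins, had 4.37 ± 0.222 and 4.37 ± 0.681 (edgeR adjusted p = 0.935). Neither passed the threshold.

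The intracellular serpins, suicide inhibitors of which some also bind cysteine cathepsins, had 4 of 13 genes tested. Of these, 0 were called by edgeR or DESeq2, 1 was called lower by limma on log2(FPKM + 1), and at an unadjusted p under 0.05 in edgeR 2 were lower and 0 higher (SERPINB6 and SERPINB9). Over all genes tested, limma called 4.69% lower, and at that unadjusted threshold 14.5% were lower and 14.4% higher. SERPINB6, the highest of the list by its mean over the 6 samples although SERPINB1 was higher in pcYY2, averaged 14.0 ± 0.419 FPKM in pcCon and 12.0 ± 0.930 in pcYY2 (SD, n = 3 each), with an adjusted p of 0.0922 in edgeR.

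Of 14 genes for sorting to lysosomes, all were tested and 1 was called, 7.14% of the list, beside 9.37% of all genes tested. SCARB2, the receptor that carries glucocerebrosidase to the lysosome, fell by 0.24 on the log2 scale (standard error 0.052, edgeR adjusted p = 0.0364), from 17.7 ± 0.699 to 14.8 ± 0.309 FPKM, and was called in 4 of 13 alternatives. PSAP, the precursor of the saposins and the highest of the list, had 71.9 ± 2.27 and 75.5 ± 3.22 FPKM, with an adjusted p of 0.286. Of the other lysosomal hydrolases and membrane proteins, 31 of 34 were tested, with 2 called higher and 1 lower. That is 9.68%, beside the same 9.37%, and the median log2 fold change was 0.02. The acid phosphatase ACP2 rose by 0.55 (standard error 0.121, adjusted p = 0.0374) and the tetraspanin CD63 by 0.22 (standard error 0.0525, adjusted p = 0.0459). GM2A, the activator protein of ganglioside breakdown, fell by 0.27 (standard error 0.0608, adjusted p = 0.0397). ACP2 was called in 7 of 13 alternatives, and CD63 and GM2A in 4 each.

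The vacuolar ATPase, which acidifies the lysosome and thereby allows cathepsins to work, was examined together with the transcription factors TFEB, TFE3 and MITF. Of these 19 genes 17 were tested, with 5 called higher and 1 lower. That is 35.3%, beside 9.37% of all genes tested (4.52% higher and 4.85% lower), and the median log2 fold change of the 17 was 0.17. As for the other lists, this share is a description only. ATP6AP1, an accessory subunit, had an FPKM of 5.74, 5.62 and 5.86 in pcCon and of 9.22, 8.68 and 9.42 in pcYY2. It rose by 0.68 (standard error 0.0536, edgeR adjusted p = 0.00198) and was called in all 13 alternatives. The other called subunits that rose were ATP6V0D1 by 0.41 (adjusted p = 0.0406), ATP6V1A by 0.38 (adjusted p = 0.022), ATP6V1G1 by 0.31 (adjusted p = 0.0424) and ATP6V0E1 by 0.30 (adjusted p = 0.0462). ATP6V0A1, a subunit of the membrane sector, fell by 0.34 (standard error 0.0638, adjusted p = 0.0251). Besides ATP6AP1, these subunits were called in 4 to 8 of 13 alternatives. TFE3, the only transcription factor of the list that was tested, had an FPKM of 3.44 ± 0.0656 and 3.84 ± 0.249 (SD, n = 3 each, adjusted p = 0.188, edgeR).

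The cornified envelope, to which cystatin A belongs in keratinocytes, was mostly not expressed, with 17 of 23 genes under the filter and 8 without a read. Of the 6 genes tested, 1 was called higher and 2 lower, beside 9.37% of all genes tested that were called. PPL (periplakin) fell by 0.42 (standard error 0.0582, edgeR adjusted p = 0.0105), and DSP (desmoplakin) by 0.15 (standard error 0.0357, adjusted p = 0.0497), from 38.7 ± 1.13 to 34.6 ± 0.247 FPKM. The call of DSP was made in 1 of 13 alternatives and was lost in every fit that left out a sample and with DESeq2 and limma, while that of PPL was made in 12. KRT10 rose by 0.59 (standard error 0.11, adjusted p = 0.0251) and was called in 7. EVPL had the lowest log2 fold change of the list, -0.66 (standard error 0.186), but was not called (edgeR adjusted p = 0.069). EVPL was called in 1 of 13 alternatives. PPL and DSP link keratin filaments to desmosomes and are also present in simple epithelia.

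**Figure D4:**
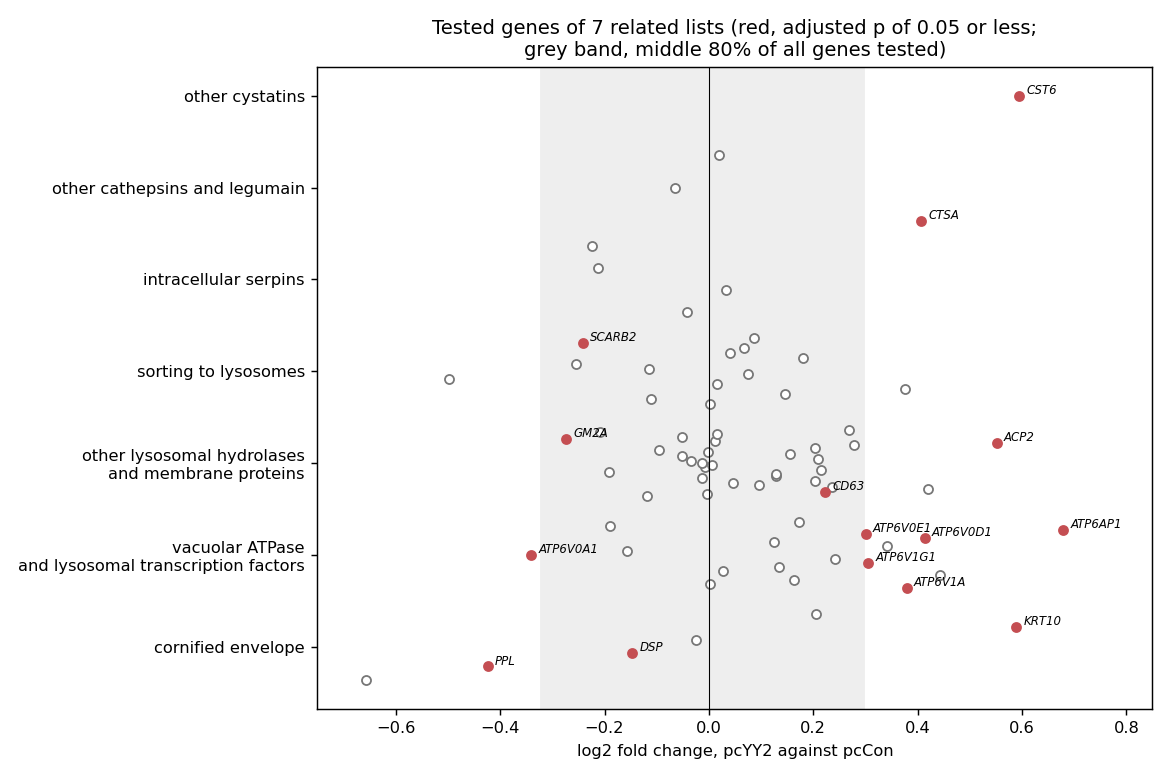
Log2 fold change, pcYY2 against pcCon (horizontal axis), of the 76 tested genes of the 7 lists (rows, with a vertical offset to separate points). The 15 called genes are red and named, and the grey band holds the middle 80% of all genes tested. CST6 and ATP6AP1 lie furthest to the right among them, at 0.59 and 0.68, and PPL furthest to the left, at -0.42.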

How the data were processed

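RNA-Seq of HCT116 cells was compared between pcYY2 and pcCon, with 3 samples each, grouped by the sample titles. The authors filtered the reads and mapped them to GRCh38 with Tophat, and HTSeq is among the tools that the submitters' processing notes name, without a stated strand setting. The methods name Cufflinks for FPKM. The deposited counts are whole reads per gene without normalization. The deposited FPKM are, as checked on the values, those counts per fixed gene length and total count of the sample, with no further scaling.

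Counts were fitted with edgeR 4.0.16 in R 4.3.3 (TMM scaling, quasi-likelihood test) over 12015 genes, those whose FPKM averaged 1 or more, and p values were adjusted over all of them by the Benjamini-Hochberg method, with a threshold of 0.05. The standard error is the log2 fold change divided by the root of F. Likeness to CSTA used log2 CPM with a prior count of 2. The tests were tried on simulated data before use. The genes and the 7 lists were chosen with earlier results of these data known. The rule for named genes took all 10 genes, the highest and up to 5 called genes of each list, the 5 genes most like CSTA, its 3 annotated neighbours on each side, and genes that overlap any of the 10. Besides ENSG00000250644, the overlapping genes were RP11-218C14.8 (CST3), RP11-589N15.2 (CTSB), and AC068580.5 and AC068580.6 (CTSD). They were counted at most 6 times in any sample and were under the filter. CTSK, LGMN, SERPINB1, SERPINB9, EVPL, ATP6V0E1, TFE3 and the markers singled out were named after their values were seen, where a count was small.

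The alternatives were lower or no filters, upper quartile scaling, DESeq2 1.42.0, limma 3.58.1 with trend on log2(FPKM + 1) and log2(FPKM + 0.1), the replicate number as a block, and leaving out each sample. Sequences and neighbours come from GENCODE 44 on GRCh38, in which 97.6% of the gene identifiers are found. Figures were drawn with matplotlib 3.10.9. No promoter or protein sequence was used here, and a sequence stretch of the stefins is not reported here.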

Additional observations from a re-analysis of the deposited data

How the results depend on the processing

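Over the 13 alternatives, 128 of 130 log2 fold changes of the 10 genes kept their direction. The exceptions were CSTB without pcYY2 2 (-0.0246) and CTSZ without pcCon 1 (0.0085), and with each sample left out these genes reached 0.212 and -0.0556 at the other end. CSTA was called lower in 12 alternatives, and 0 of the other 9 genes were called in any. These fits reuse the samples in which CSTA was chosen, so nothing is read from its calls. With the replicate number as a block, CSTA had a log2 fold change of -2.12 and was not called, so that 0 of the 10 genes were called lower. In that fit 51 genes were higher and 50 lower in pcYY2, against 543 and 583 without the block, and 1 listed gene was called higher and 0 lower, against 10 and 5. The deviations from the group means correlated at -0.0274, -0.0318 and -0.0175 between samples with the same number, and no sample correlated best with its own number. The methods name no pairing, and with 3 samples per group these values cannot decide whether there was one. The block also uses up degrees of freedom. Its part in the lost calls was not tested. With each sample left out, 138 to 412 genes were called higher in pcYY2 and 147 to 393 lower, 2 to 7 listed genes were called higher and 1 to 2 lower, and CSTA stayed between -2.30 and -1.94. With a filter at a mean FPKM of 0.1, or with none, 2 listed genes were called lower in place of 5. Depth gave CSTA 12 to 77 reads per sample, and the other 9 genes at least 247. Every one of the 10 mean levels moved with the canonical transcript length, the alternative added after seeing the data.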
